A study of Homo sapiens with 9 samples.

Results

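The genes described here are the long noncoding RNA genes with a systematic LINC name that were measurably expressed in EGI-1 cells. Members were the genes whose GENCODE release 29 symbol begins with LINC followed by a number and whose raw count averaged at least 5 over the 9 libraries. The rule kept 159 of the 1888 LINC-named genes in the files, which held 58381 genes in all. A further 1223 LINC-named genes had no count in any library, and 506 had some counts but a mean under 5. The members were thus chosen by their mean count over all libraries. The rule also named LINC00707 with its low level under both FOSL1 hairpins already known, and its change against the control is given as a description.

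All 9 libraries came from EGI-1, an established cell line of human cholangiocarcinoma, a cancer of the bile ducts. The groups were FOSL1sh3 and FOSL1sh10, which carry different TET-inducible short hairpin RNAs against FOSL1, and GFPsh, which carries an inducible hairpin against GFP as the control, with 3 libraries each. Every group, the control included, received doxycycline at 2 ug per ml for 4 days and was harvested 24 hours after seeding. The labels do not say that the 3 libraries of a group came from separate cultures or clones, and the p-values therefore reflect only how these libraries scatter, which may be technical.

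As background, long noncoding RNAs are transcripts that are spliced and polyadenylated much like messenger RNAs but are not known to be translated. A LINC symbol is mostly a placeholder for a gene between protein-coding genes whose function has not been worked out, and a few such genes have been studied for effects on growth, invasion or neighbouring genes in carcinoma cells. FOSL1 encodes FRA-1, a subunit of the AP-1 transcription factor, which binds DNA at the short palindromic motif TGA(C/G)TCA. The search below used the wider pattern TGANTCA, where N is any base.

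The hairpins lowered FOSL1 itself to a similar level. FOSL1 was at 71.9, 69.96 and 44.7 CPM (TMM-normalized counts scaled to a common library size) in FOSL1sh3 libraries, at 70.6, 57.2 and 65.7 CPM in FOSL1sh10 libraries, and at 303, 256 and 182 CPM in GFPsh libraries. The log2 fold change against GFPsh was -1.99 (SE 0.20, edgeR quasi-likelihood test, adjusted p = 8.42e-06) in FOSL1sh3 and -1.94 (SE 0.20, adjusted p = 7.34e-06) in FOSL1sh10. Library totals ran from 6893026 to 10604251 counts, and the TMM scaling factors were 0.923 to 0.963 in FOSL1sh3, 1.02 to 1.10 in FOSL1sh10 and 0.987 to 0.999 in GFPsh. The 6 epithelial and biliary markers (EPCAM, KRT8, KRT18, KRT19, KRT7 and SOX9) were all expressed, with a summed level of 11508 to 12767 CPM in FOSL1sh3, 11759 to 13639 CPM in FOSL1sh10 and 10540 to 11424 CPM in GFPsh. The marker sums in this paragraph use raw library totals, without TMM factors. On that scale both hairpins lay above GFPsh in this sum. With the TMM factors applied, FOSL1sh10 overlapped GFPsh and FOSL1sh3 stayed above it. KRT7, a biliary keratin, was called higher with both (log2 fold change 0.45, adjusted p = 0.0475 in FOSL1sh3 and 0.72, adjusted p = 0.00449 in FOSL1sh10). The 6 fibroblast and endothelial markers, 2 of them at 0 throughout, summed to 3.58 to 7.29 CPM in FOSL1sh3, 7.11 to 9.19 CPM in FOSL1sh10 and 2.88 to 4.67 CPM in GFPsh, with FOSL1sh10 above GFPsh. The part of these marker shifts in the results below was not tested. The 5 leukocyte markers summed to at most 0.277 CPM, with 3 of these 5 at 0 throughout, and the 5 hepatocyte markers to at most 0.998 CPM, with 1 of these 5 at 0 throughout.

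Most members were scarce. The median member averaged 16.4 counts per library, against 104 counts for the median of all 13884 genes with a mean of at least 5 counts. Of the 159 members, 91 averaged under 20 counts and 19 averaged at least 100 counts, and the 10 members with the most counts held 41.9% of all counts in the group. A library needs 3 counts to reach the detection floor, which is 0.305 to 0.431 CPM here, and between 1 and 9 members fell under that floor in a given library. Together the members took 0.0780%, 0.0790% and 0.0784% of all counts in FOSL1sh3 libraries, 0.0886%, 0.0973% and 0.0909% in FOSL1sh10 libraries, and 0.0881%, 0.0819% and 0.0853% in GFPsh libraries. The 3 groups did not overlap in this share of raw library totals, FOSL1sh3 being lowest and FOSL1sh10 highest, and no test was made on it. Without LINC02582, the member with the most counts, the share was 0.0724% ± 0.00102 in FOSL1sh3, 0.0818% ± 0.00376 in FOSL1sh10 and 0.0753% ± 0.00204 in GFPsh (SD, n = 3 each). FOSL1sh3 and GFPsh then overlapped, with FOSL1sh3 3 at 0.0731% and GFPsh 2 at 0.0729%. With the TMM factors applied to the totals, each FOSL1 hairpin overlapped GFPsh in the share of all 159 members.

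**Figure D1:**
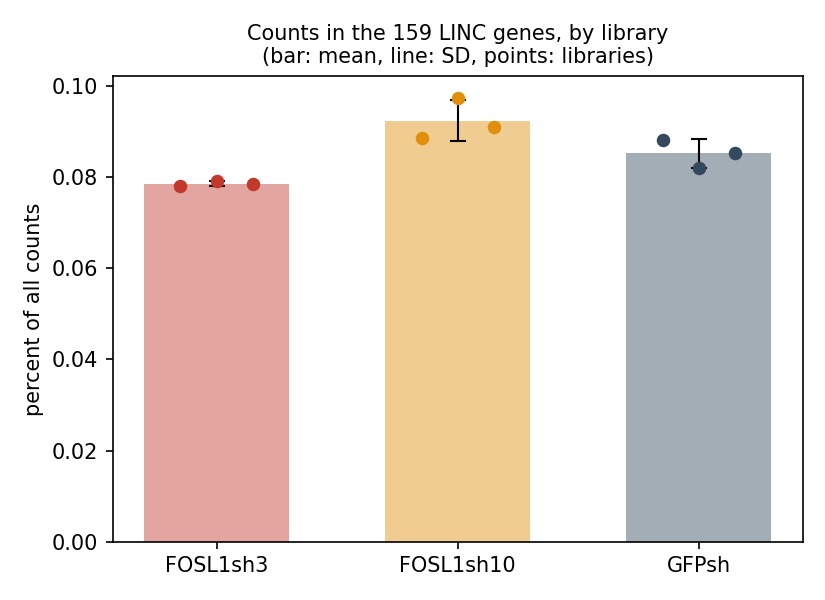
Percent of all counts that fell in the 159 LINC genes, with FOSL1sh3, FOSL1sh10 and GFPsh on the x axis. Bars are means, lines are SDs and points are the 3 libraries of each group, and the FOSL1sh3 points lie below every GFPsh point. The percent uses raw library totals, and with the TMM factors applied each FOSL1 hairpin overlaps GFPsh.

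Levels between genes are compared as CPM per kb of exon, averaged over the 9 libraries. The protocol tags transcripts near their 3' ends, so division by exon length lowers long genes, and the order is approximate. The median member stood at 1.13 CPM per kb. LINC02582 on chromosome 18 was highest at 38.3 CPM per kb, followed by LINC02001 at 20.01 CPM per kb, which hosts the small nucleolar RNA SNORD7 and is now named SNHG30. LINC00239 (13.8), LINC00674 (13.6), LINC01843 (11.1) and LINC01578 (9.94 CPM per kb) came next. LINC01578 is now named CHASERR, a transcript known for restraining its neighbour CHD2. LINC01023 (9.47), LINC02081 (8.53, now SCAT1), LINC00941 (8.07) and LINC00707 (7.80 CPM per kb) completed the 10 highest. Differences between neighbours in this order were not tested. The lowest, LINC01515, was at 0.0658 CPM per kb.

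**Figure D2:**
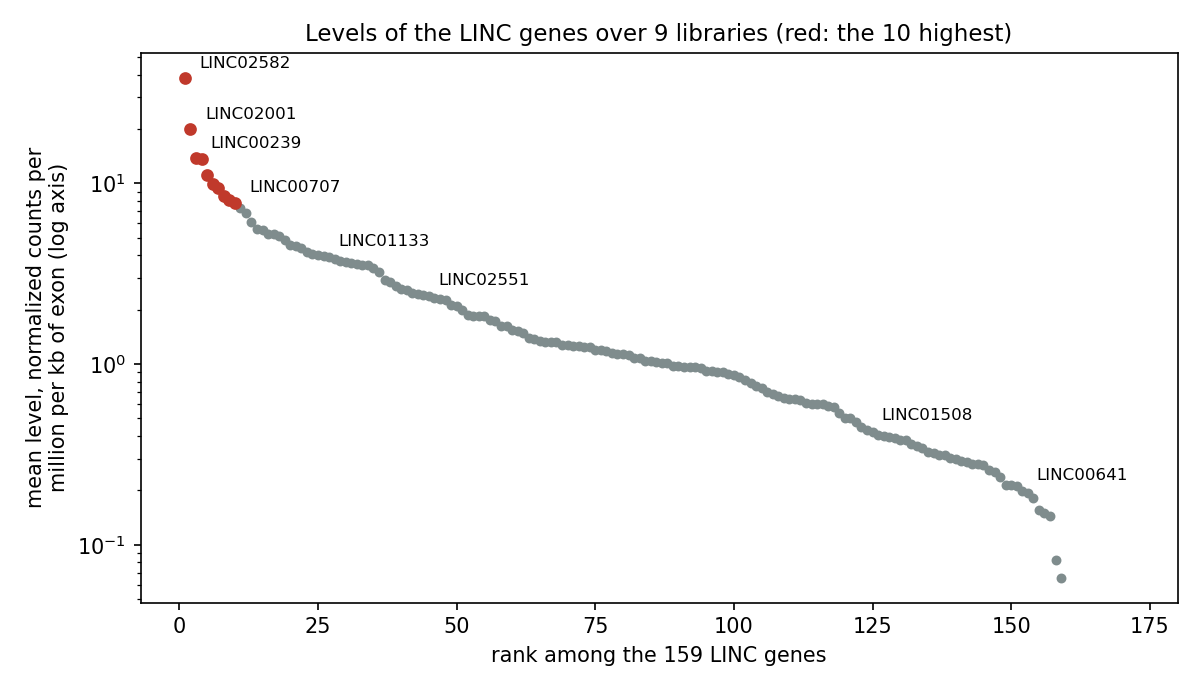
Mean level of each of the 159 LINC genes over the 9 libraries, in CPM per kb of exon on a log axis, against its rank. The 10 highest are red, from LINC02582 at 38.3 to LINC00707 at 7.80 CPM per kb, and the lowest gene is at 0.0658 CPM per kb.

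By annotation the members were 124 lincRNA genes, 13 processed transcripts, 12 antisense genes, 6 transcribed unprocessed pseudogenes, 1 transcribed unitary pseudogene, 2 bidirectional promoter transcripts and 1 gene typed as protein coding, LINC00672. The median member had 4 exon blocks and 2147 bases of exon. The counts do not use strand, which matters for the 78 members whose span overlaps another gene: exons of 38 members overlapped exons of a gene on the opposite strand, and those of 19 members overlapped exons on the same strand. A further measure of position is the gene just upstream, and 25 members began within 5 kb downstream of a gene end on the same strand. The remaining 64 members had neither an overlap nor such a gene upstream.

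The libraries are read from the poly(A) end, so the last bases of the transcripts were searched for the polyadenylation hexamers AATAAA and ATTAAA. A hexamer lay in the last 50 bases of at least 1 annotated transcript for 131 of 159 members (82.4%), against 91.4% of protein-coding genes and 75.5% of all lincRNA genes with a mean of at least 5 counts. The last 100 bases of 1 annotated GENCODE transcript (hg38, sense strand) are shown for 4 members whose levels are described next, since the protocol tags transcripts near their 3' ends. These 4 genes each have several annotated transcripts, and the longest with a hexamer is shown, so its presence here is by choice. A hexamer lay in 2 of 9 transcripts of LINC00707, 6 of 12 of LINC00520, 3 of 3 of LINC01133 and 2 of 3 of LINC02582. The counts do not show which end is used, and every such hexamer in the last 50 bases is in capitals.
LINC00707: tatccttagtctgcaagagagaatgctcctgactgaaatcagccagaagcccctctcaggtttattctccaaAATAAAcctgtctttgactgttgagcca
LINC00520: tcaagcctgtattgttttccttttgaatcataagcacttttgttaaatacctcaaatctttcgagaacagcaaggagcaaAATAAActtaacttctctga
LINC01133: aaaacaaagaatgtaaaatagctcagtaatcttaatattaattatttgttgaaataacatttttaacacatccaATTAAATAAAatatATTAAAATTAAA
LINC02582: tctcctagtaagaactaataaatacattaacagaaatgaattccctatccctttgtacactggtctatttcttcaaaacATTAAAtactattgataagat

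LINC00707 (ENSG00000238266.1, chr10:6779598-6842906 on the plus strand of hg38) is a spliced intergenic RNA studied as a growth-promoting transcript in several carcinomas. It was at 14.7, 12.4 and 12.8 CPM in FOSL1sh3 libraries, at 11.1, 18.6 and 12.1 CPM in FOSL1sh10 libraries, and at 52.4, 29.9 and 51.6 CPM in GFPsh libraries. Every library of either FOSL1 hairpin lay below every GFPsh library, and the control library nearest to them was GFPsh 2. The log2 fold change against GFPsh was -1.74 (SE 0.23) in FOSL1sh3 and -1.67 (SE 0.23) in FOSL1sh10, and with any 1 library left out it stayed between -1.96 and -1.54. The hairpins did not differ from each other beyond their error in this gene (log2 fold change of FOSL1sh3 over FOSL1sh10 -0.07, SE 0.24, adjusted p = 0.888). LINC00707 overlaps no other gene, and its nearest protein-coding gene, PRKCQ, lies 199297 bases away and had no count in any library. RefSeq lists the name LINC00707 also as a synonym of LINP1, a separate gene 40572 bases upstream on the same strand, which is counted under its own identifier. LINP1 averaged 63.7 ± 15.5 CPM in FOSL1sh3, 88.5 ± 7.58 CPM in FOSL1sh10 and 101 ± 15.6 CPM in GFPsh (SD, n = 3 each), with log2 fold changes of -0.67 (SE 0.17, adjusted p = 0.0194) in FOSL1sh3 and -0.20 (SE 0.17, adjusted p = 0.598) in FOSL1sh10.

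**Figure D3:**
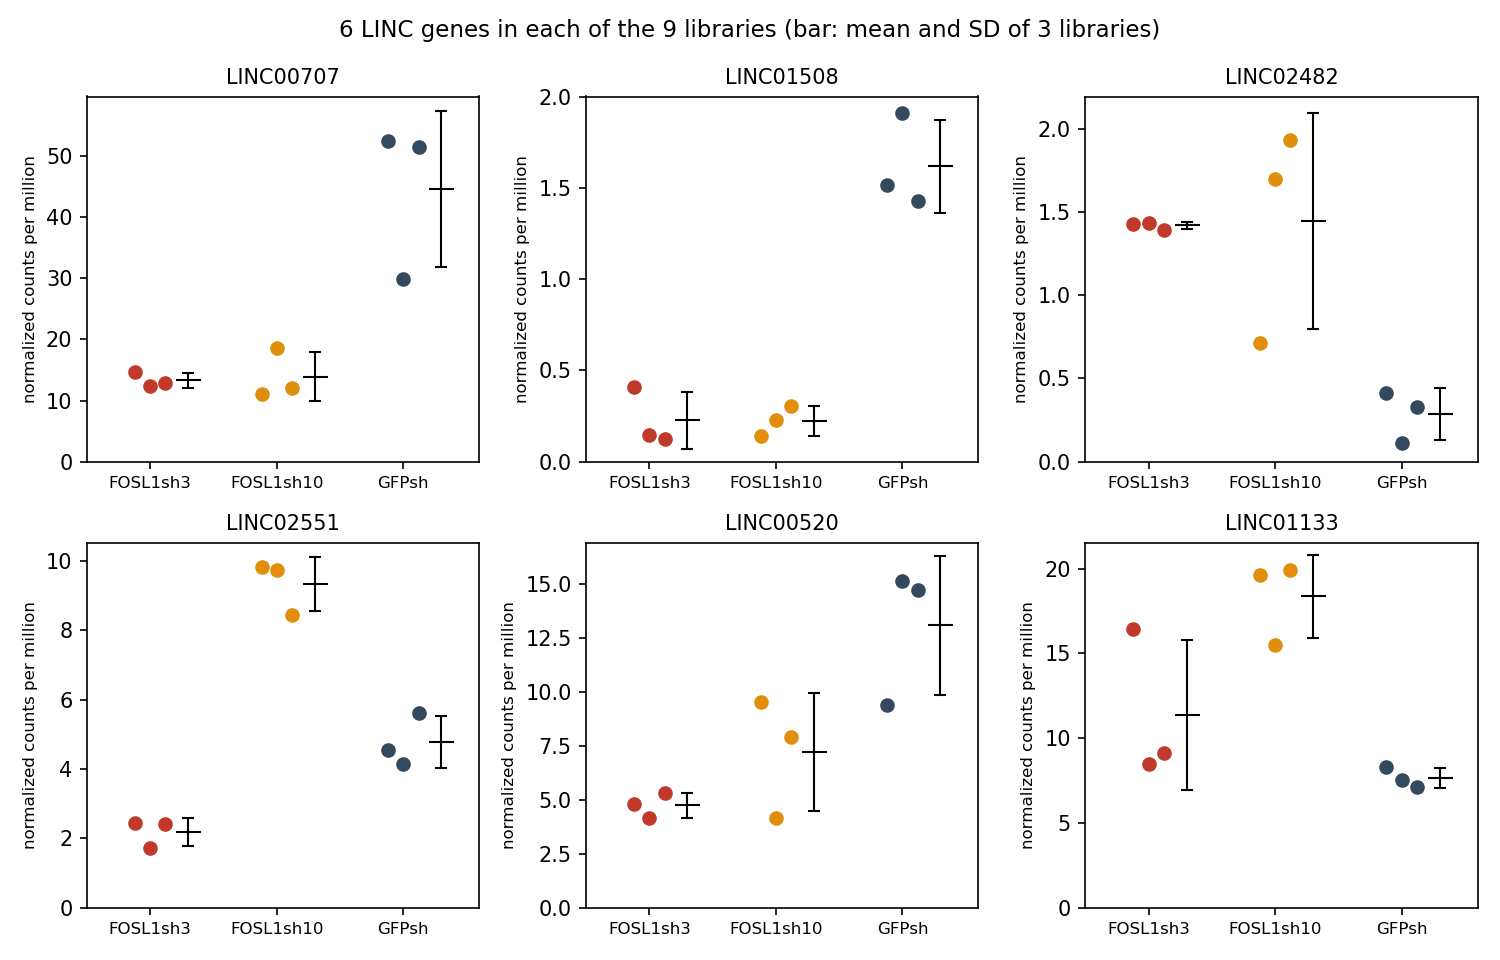
CPM of 6 LINC genes in every library, with FOSL1sh3, FOSL1sh10 and GFPsh on the x axis, points for libraries and bars for the mean and SD of 3 libraries. LINC00707 and LINC01508 lie lower with both FOSL1 hairpins than in GFPsh, LINC02482 lies higher with both, and LINC02551 is at 2.19 CPM in FOSL1sh3, 9.33 CPM in FOSL1sh10 and 4.77 CPM in GFPsh.

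The 5 members whose log2 CPM followed that of LINC00707 most closely over the 9 libraries were LINC01508 (Pearson r = 0.901), LINC00641 (0.777), LINC00941 (0.755), LINC01220 (0.692) and LINC01833 (0.689). The 9 libraries share their group structure, so r mostly reflects group differences and is a description. LINC00941 had a fold change of -0.18 in FOSL1sh3 and -0.31 in FOSL1sh10 on the log2 scale, and neither it nor LINC01833 passed the test in any of the 3 comparisons.

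Besides LINC00707, 2 members passed the test with both hairpins in 1 direction. An adjusted p under 0.05 in edgeR's quasi-likelihood test, with Benjamini-Hochberg adjustment over all 13884 genes, is called here. In the same direction with both hairpins 3 members were called (1.89%), against 1.43% of all tested genes. Of these, 2 were lower (0.49% of all genes) and 1 was higher (0.936% of all genes), and since both comparisons use the same GFPsh libraries the count is a description. LINC00707, chosen with its fall known, is 1 of the 2 lower and is also in the counts for each hairpin below.

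LINC01508 (chr9:90300902-90433505, minus strand) had 4, 1 and 1 raw counts in FOSL1sh3 libraries, 1, 2 and 3 counts in FOSL1sh10 libraries, and 11, 17 and 13 counts in GFPsh libraries. Every FOSL1 hairpin library was below every GFPsh library, and all but FOSL1sh3 1 were at or under the floor of 3 counts. The ratio of summed counts, scaled for depth, was 0.150 for FOSL1sh3 over GFPsh (95% exact counting interval 0.0520 to 0.355) and 0.144 for FOSL1sh10 over GFPsh (0.0499 to 0.341). The fit gave a log2 fold change of -2.68 for FOSL1sh3 (SE 0.62, adjusted p = 0.0106) and of -2.73 for FOSL1sh10 (SE 0.62, adjusted p = 0.0123), which at such low levels depend on the prior count and are no bound. With 1 library left out the adjusted p reached at most 0.0451 for FOSL1sh3 and 0.0602 for FOSL1sh10, where the call was lost without GFPsh 2, FOSL1sh10 1 or FOSL1sh10 2.

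LINC02482 (chr4:6648696-6673896, minus strand) had 14, 10 and 11 counts in FOSL1sh3 libraries, 5, 15 and 19 counts in FOSL1sh10 libraries, and 3, 1 and 3 counts in GFPsh libraries. Every library of the FOSL1 hairpins exceeded the control libraries, all of which were at or under the floor. The depth-scaled ratio was 5.12 for FOSL1sh3 over GFPsh (counting interval 2.24 to 13.7) and 5.47 for FOSL1sh10 over GFPsh (2.42 to 14.5). The fit gave 2.29 on the log2 scale for FOSL1sh3 (SE 0.62, adjusted p = 0.0256) and 2.35 for FOSL1sh10 (SE 0.62, adjusted p = 0.0307). Leaving out 1 library took the adjusted p to between 0.0361 and 0.0986 for FOSL1sh3, over 0.05 without any of the GFPsh libraries, FOSL1sh3 1 or FOSL1sh3 3, and to between 0.0224 and 0.142 for FOSL1sh10, over 0.05 without any of the GFPsh libraries, FOSL1sh10 2 or FOSL1sh10 3. In this gene 213 exon bases are shared with a gene on the opposite strand, and reads there cannot be told apart or are lost.

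With FOSL1sh3, 13 members were called against GFPsh (8.18%), against 9.8% of all tested genes. Of these, 8 were lower (5.03%, with 5.16% of all genes) and 5 were higher (3.14%, with 4.65% of all genes). With 1 library left out the count was 4 without GFPsh 3, 6 without FOSL1sh3 3, 7 without GFPsh 1 or GFPsh 2, 9 without FOSL1sh3 1 and 13 without FOSL1sh3 2. Calls over all genes moved too, to between 572 and 1772 from 1361 with every library. At an unadjusted p under 0.05 there were 37 members (23.3%, with 25.6% of all genes). Library ranges did not overlap for 20 members that were higher (12.6%, with 13.9% of all genes) and 17 that were lower (10.7%, with 14.1% of all genes). The median log2 fold change was 0.15 over the members and 0.01 over all tested genes. Over the 68 members with a mean of at least 20 counts it was -0.0023, with -0.0038 over all genes of that level.

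LINC00520 (chr14:55781135-55796688, minus strand), an intergenic RNA studied in carcinomas, was at 4.80, 4.17 and 5.32 CPM in FOSL1sh3 libraries and 9.38, 15.2 and 14.7 CPM in GFPsh libraries. The groups did not overlap, and the log2 fold change was -1.46 (SE 0.28, adjusted p = 0.00365, edgeR), with adjusted p from 0.00464 to 0.0217 when 1 library was left out. The FOSL1sh10 libraries, at 9.52, 4.19 and 7.94 CPM, overlapped the control, and the log2 fold change there was -0.87 (SE 0.27, adjusted p = 0.0732). The difference between the hairpins was -0.58 (SE 0.29, adjusted p = 0.212), so these data do not show that the hairpins differed in this gene.

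LINC02582, the most abundant member, was at 73.1, 65.4 and 55.1 CPM in FOSL1sh3 libraries, 94.9, 102 and 96.3 CPM in FOSL1sh10 libraries, and 116, 91.3 and 90.04 CPM in GFPsh libraries. FOSL1sh3 lay below the other groups without overlap, with -0.62 on the log2 scale against GFPsh (SE 0.15, adjusted p = 0.0134). Leaving out GFPsh 1 gave an adjusted p of 0.102 and leaving out FOSL1sh3 3 gave 0.0516. LINC02474 (chr1:221966341-221984964, plus strand; nearest protein-coding gene DUSP10, a phosphatase of stress kinases, 224165 bases away) was at 6.43, 4.74 and 4.56 CPM in FOSL1sh3 libraries, 12.6, 7.47 and 9.56 CPM in FOSL1sh10 libraries, and 9.79, 9.77 and 10.0 CPM in GFPsh libraries. Against GFPsh its log2 fold change in FOSL1sh3 was -0.90 (SE 0.24, adjusted p = 0.026), and adjusted p ran up to 0.0888 with 1 library left out, over 0.05 without any GFPsh library, FOSL1sh3 2 or FOSL1sh3 3.

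LINC01220 (chr14:75294404-75296638, plus strand) lies 12174 bases from FOS, which encodes another AP-1 subunit. Its counts were 5, 12 and 1 in FOSL1sh3 libraries, 9, 7 and 12 in FOSL1sh10 libraries, and 20, 22 and 46 in GFPsh libraries. Both FOSL1 hairpins lay below the control in every library, with log2 fold changes of -2.18 (SE 0.56, adjusted p = 0.0194) in FOSL1sh3 and -1.64 (SE 0.52, adjusted p = 0.0803) in FOSL1sh10. The FOSL1sh3 call was lost without GFPsh 3 (adjusted p = 0.107), FOSL1sh3 1 (0.0669) or FOSL1sh3 3 (0.0756). FOS was higher in FOSL1sh3, at 17.6 ± 5.23 CPM in FOSL1sh3, 9.55 ± 3.36 CPM in FOSL1sh10 and 4.62 ± 1.14 CPM in GFPsh (SD, n = 3 each). Its log2 fold change was 1.91 in FOSL1sh3 (SE 0.29, adjusted p = 0.000533) and 1.03 in FOSL1sh10 (SE 0.30, adjusted p = 0.0531).

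LINC00641 (chr14:21200079-21206900, minus strand) had 6, 1 and 5 counts in FOSL1sh3 libraries, 3, 15 and 10 counts in FOSL1sh10 libraries, and 18, 13 and 16 counts in GFPsh libraries. FOSL1sh3 lay below GFPsh without overlap, at a change of -1.94 on the log2 scale (SE 0.59, adjusted p = 0.0435) and a depth-scaled ratio of 0.262 (counting interval 0.126 to 0.501). Leaving out any of these 6 libraries ended the call, with adjusted p between 0.0606 and 0.155, and it was also lost in a fit of the compared groups alone (0.0526). It begins 2236 bases downstream of HNRNPC, an RNA-binding protein gene on the same strand, which was at -0.03 (SE 0.14) on the same scale in FOSL1sh3.

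The 5 higher members in FOSL1sh3 were low in count apart from LINC02323. LINC02323 (chr14:102545254-102555826, plus strand) was at 13.4, 11.9 and 10.0 CPM in FOSL1sh3 libraries, 4.26, 4.301 and 6.51 CPM in FOSL1sh10 libraries, and 8.28, 5.502 and 5.94 CPM in GFPsh libraries. FOSL1sh3 lay above both other groups without overlap, and its log2 fold change against GFPsh was 0.85 (SE 0.24, adjusted p = 0.0333), lost without GFPsh 2 (0.12), GFPsh 3 (0.113) or FOSL1sh3 1 (0.0964). LINC01703 had 22, 16 and 16 counts in FOSL1sh3 libraries, 7, 13 and 6 counts in FOSL1sh10 libraries, and 5 counts in each GFPsh library, which gave 1.85 on the log2 scale in FOSL1sh3 (SE 0.49, adjusted p = 0.0228) that was lost without any 1 GFPsh library (0.0573 to 0.0735).

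LINC01089, also known as LIMT and described as lowered by growth factor in mammary cells, had 22, 12 and 12 counts in FOSL1sh3 libraries, 17, 16 and 13 counts in FOSL1sh10 libraries, and 5, 6 and 3 counts in GFPsh libraries. Every library of either hairpin exceeded the control libraries, at log2 fold changes of 1.70 (SE 0.50, adjusted p = 0.038) in FOSL1sh3 and 1.68 (SE 0.50, adjusted p = 0.0607) in FOSL1sh10. The FOSL1sh3 call was lost without any GFPsh library, FOSL1sh3 1 or FOSL1sh3 3, with adjusted p up to 0.137, and with the compared groups alone (0.0649). Its exons share 1724 bases with same-strand and 2221 bases with opposite-strand exons of overlapping genes, so its counts are uncertain. LINC01715, now named TAF12-DT, begins 143 bases from TAF12 on the opposite strand and had 2, 17 and 11 counts in FOSL1sh3 libraries, 4, 4 and 3 counts in FOSL1sh10 libraries, and 1, 2 and 1 counts in GFPsh libraries. Its FOSL1sh3 and GFPsh libraries overlapped, the fitted log2 fold change was 2.91 (SE 0.85, adjusted p = 0.0353), and the call was lost without any 1 library other than FOSL1sh3 1 (adjusted p up to 0.129) and with the compared groups alone (0.0565). TAF12 itself, a subunit of the TFIID and SAGA complexes, was at 51.8 ± 6.38 CPM in FOSL1sh3 and 51.8 ± 1.82 CPM in GFPsh (SD, n = 3 each).

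**Figure D4:**
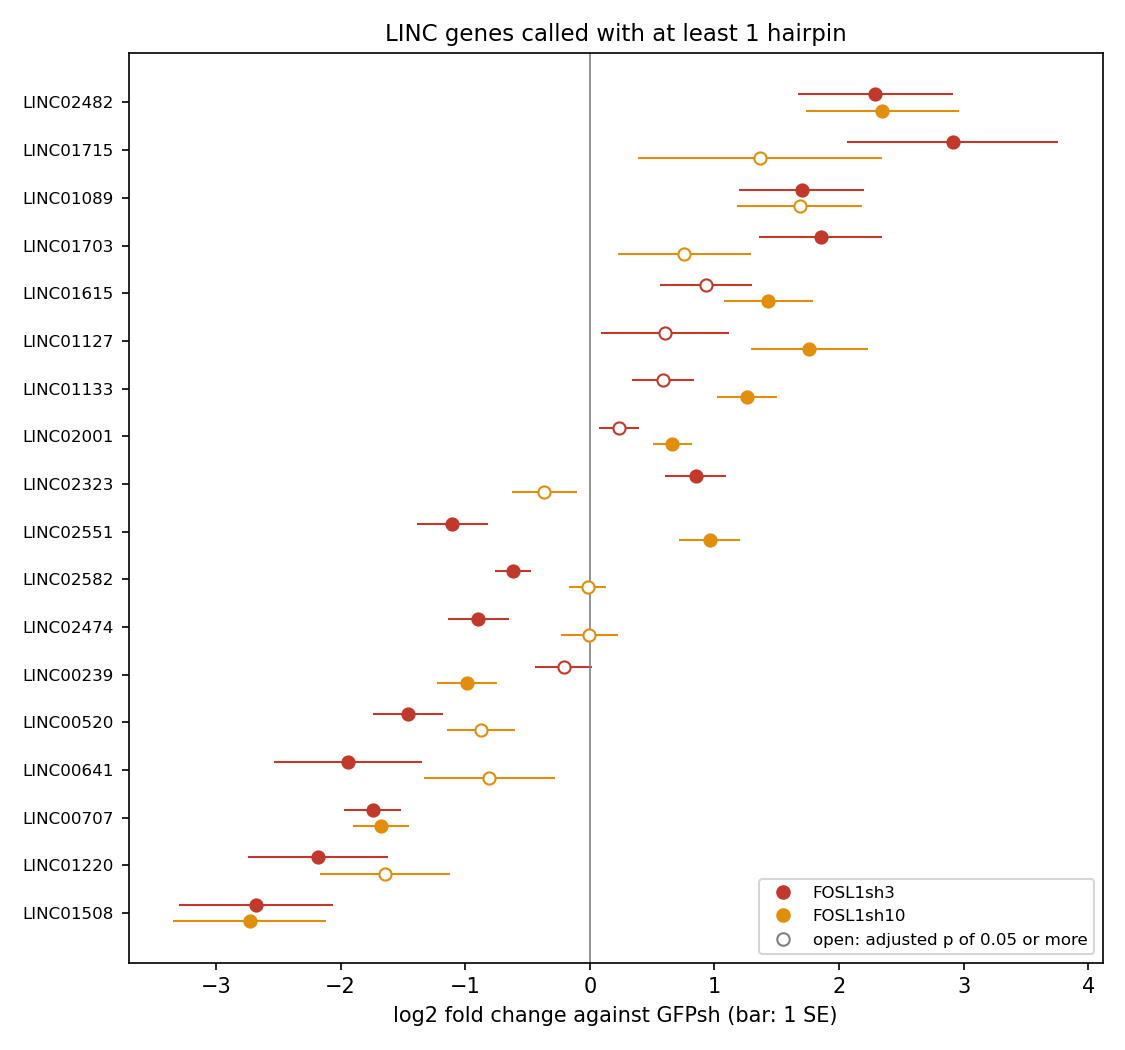
Log2 fold change against GFPsh, with 1 SE, of the 18 LINC genes called with at least 1 hairpin, FOSL1sh3 above FOSL1sh10 in each row and open circles where the adjusted p was 0.05 or more. LINC00707, LINC01508 and LINC02482 have 2 filled circles on 1 side of 0, and LINC02551 has them on opposite sides.

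With FOSL1sh10, 9 members were called against GFPsh (5.66%), against 4.88% of all tested genes. Of these, 6 were higher (3.77%, with 2.91% of all genes) and 3 were lower (1.89%, with 1.97% of all genes). With 1 library left out the count was 3 without GFPsh 1, FOSL1sh10 1 or FOSL1sh10 2, 5 without GFPsh 3 or FOSL1sh10 3 and 6 without GFPsh 2. Calls over all genes fell too, to between 344 and 420 from 677 with every library. At an unadjusted p under 0.05 there were 33 members (20.8%, with 18.5% of all genes). Library ranges did not overlap for 32 members that were higher (20.1%, with 13.8% of all genes) and 15 that were lower (9.43%, with 12.5% of all genes). The median log2 fold change was 0.16 over the members and 0.00 over all tested genes. Over the 68 members with a mean of at least 20 counts it was 0.07, with -0.0025 over all genes of that level.

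LINC01133 (chr1:159961218-159984750, plus strand), known from colorectal cancer cells as a partner of the splicing factor SRSF6, was at 19.6, 15.5 and 19.9 CPM in FOSL1sh10 libraries and 8.28, 7.52 and 7.15 CPM in GFPsh libraries. The groups did not overlap, and the log2 fold change was 1.26 (SE 0.24, adjusted p = 0.00329, edgeR), with adjusted p from 0.00671 to 0.0238 when 1 library was left out. FOSL1sh3 libraries were at 16.4, 8.48 and 9.13 CPM, all above the control, with a change of 0.59 on the log2 scale (SE 0.25, adjusted p = 0.138). The difference of FOSL1sh3 from FOSL1sh10 was -0.68 (SE 0.23, adjusted p = 0.067).

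LINC02001 was at 40.1, 37.2 and 36.8 CPM in FOSL1sh10 libraries and 19.9, 27.1 and 24.96 CPM in GFPsh libraries, without overlap. Its log2 fold change was 0.66 (SE 0.16, adjusted p = 0.0179), and adjusted p rose to 0.12 without GFPsh 1 and to at most 0.074 without any 1 FOSL1sh10 library. It shares 67 exon bases with SNORD7 on the same strand. LINC01615 (chr6:169158092-169162924, minus strand; 52856 bases from THBS2, a secreted matrix protein gene) was at 11.9, 6.90 and 7.02 CPM in FOSL1sh10 libraries and 2.62, 5.28 and 1.54 CPM in GFPsh libraries. The groups did not overlap, and the change of 1.43 on the log2 scale (SE 0.36, adjusted p = 0.0231) missed the threshold without GFPsh 1 (0.1), GFPsh 3 (0.122) or FOSL1sh10 1 (0.124).

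LINC01127 had 15, 26 and 29 counts in FOSL1sh10 libraries and 3, 10 and 7 counts in GFPsh libraries, without overlap. Its log2 fold change was 1.76 (SE 0.47, adjusted p = 0.0327), and the call held only without GFPsh 2, being lost without each of the other 5 libraries compared (adjusted p up to 0.137). Its nearest coding gene, IL1R2, the decoy receptor for interleukin 1, lies 4677 bases away and had a log2 fold change of 0.29 in FOSL1sh10, not called. LINC00239 (chr14:101730437-101732522, plus strand) was the other lower member beside LINC00707 and LINC01508, at 3.98, 5.77 and 7.02 CPM in FOSL1sh10 libraries and 10.8, 10.3 and 12.5 CPM in GFPsh libraries. These groups did not overlap, and the log2 fold change was -0.99 (SE 0.24, adjusted p = 0.0195). It was lost without GFPsh 1, GFPsh 3, FOSL1sh10 1 or FOSL1sh10 2 (0.0502 to 0.0955).

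**Figure D5:**
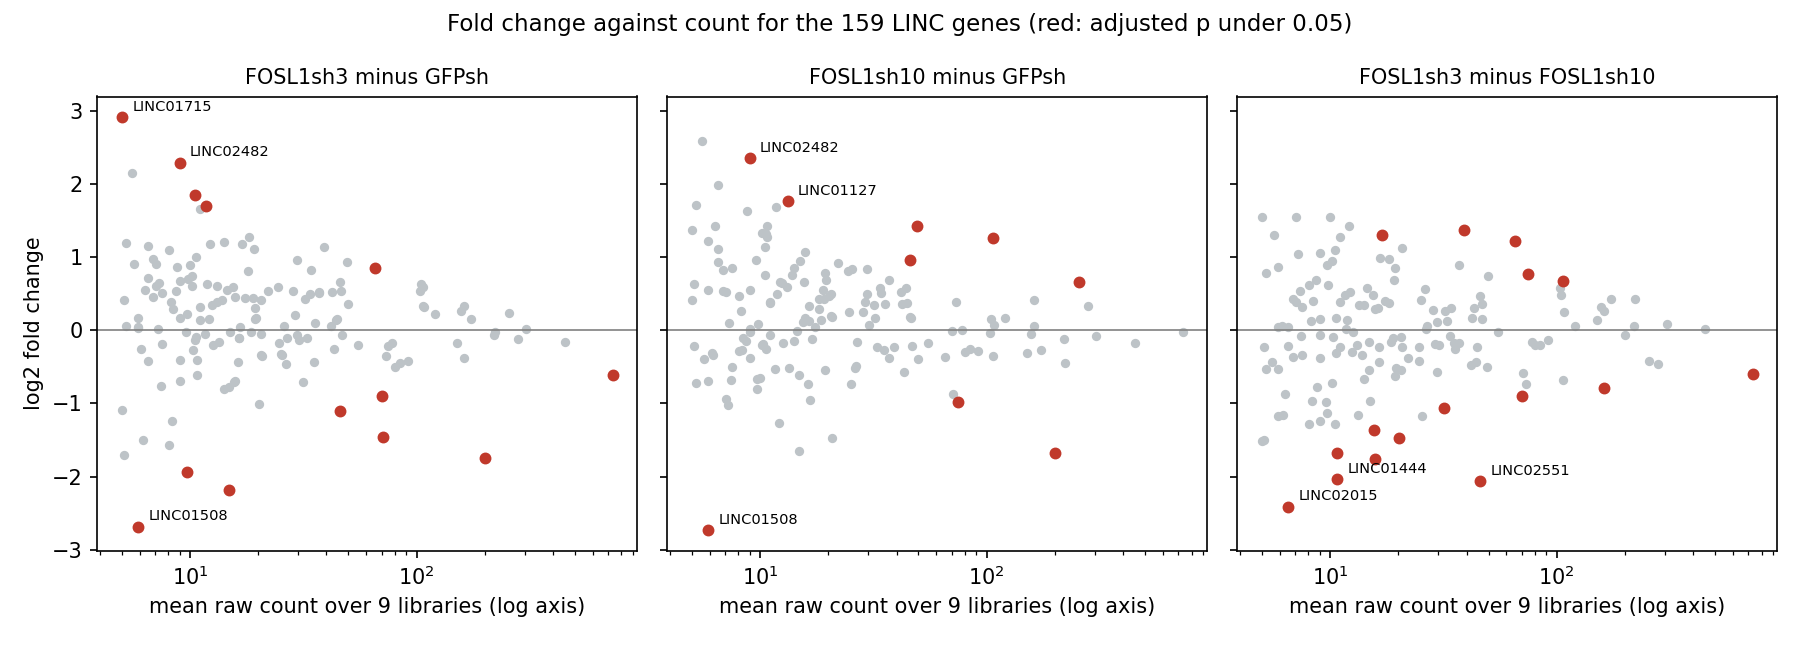
Log2 fold change of the 159 LINC genes against their mean raw count on a log axis, for FOSL1sh3 minus GFPsh, FOSL1sh10 minus GFPsh and FOSL1sh3 minus FOSL1sh10, with genes at an adjusted p under 0.05 in red. There are 13, 9 and 16 red points in the panels, and the widest scatter lies at low counts.

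Compared directly, FOSL1sh3 and FOSL1sh10 differed in 16 members (10.1%), against 11.5% of all tested genes. Of these, 5 were higher in FOSL1sh3 (3.14%, with 5.08% of all genes) and 11 were lower (6.92%, with 6.41% of all genes). Scaled by library totals alone the split was 2 higher and 15 lower, and that scaling moved the median of all genes by -0.17 on the log2 scale here, by 0.10 in FOSL1sh10 against GFPsh and by -0.06 in FOSL1sh3 against GFPsh. With 1 library left out the count was 6 without FOSL1sh10 2 or FOSL1sh10 3, 7 without FOSL1sh3 3, 8 without FOSL1sh10 1, 13 without FOSL1sh3 1 and 14 without FOSL1sh3 2. Calls over all genes moved too, to between 717 and 1900 from 1595 with every library. At an unadjusted p under 0.05 there were 37 members (23.3%, with 26.7% of all genes). Library ranges did not overlap for 21 members that were higher in FOSL1sh3 (13.2%, with 14% of all genes) and 22 that were lower (13.8%, with 15.3% of all genes).

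LINC02551 (chr11:130844191-130865561, minus strand) stood out as the member called in opposite directions against the control, 1 of 159 (0.629%) where 0.122% of all tested genes did so. It was at 2.45, 1.72 and 2.41 CPM in FOSL1sh3 libraries, 9.81, 9.73 and 8.44 CPM in FOSL1sh10 libraries, and 4.55, 4.15 and 5.61 CPM in GFPsh libraries. No 2 groups overlapped, and the log2 fold change of FOSL1sh3 over FOSL1sh10 was -2.06 (SE 0.27, adjusted p = 9.13e-05), with adjusted p of at most 0.000898 when 1 library was left out. Against GFPsh the log2 fold change was -1.10 (SE 0.28, adjusted p = 0.0196) in FOSL1sh3, lost without GFPsh 1 (0.0532) or GFPsh 3 (0.0819) or with the compared groups alone (0.0521). In FOSL1sh10 it was 0.96 (SE 0.25, adjusted p = 0.0275), lost without any 1 library other than GFPsh 3, with adjusted p up to 0.113. The gene begins 693 bases downstream of the end of AP003486.1 on the same strand.

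LINC02323, described above, differed by a log2 fold change of 1.22 between FOSL1sh3 and FOSL1sh10, higher in FOSL1sh3 (SE 0.25, adjusted p = 0.00394), and adjusted p stayed at or under 0.031 with 1 library left out. LINC00460 (chr13:106374477-106384315, plus strand), a transcript studied in several carcinomas that fell outside the naming rule and was picked after its values were seen, was at 16.95, 13.2 and 12.4 CPM in FOSL1sh3 libraries, 24.0, 25.7 and 24.3 CPM in FOSL1sh10 libraries, and 19.6, 17.3 and 18.7 CPM in GFPsh libraries. The GFPsh values lay between those of the FOSL1 hairpins, and the difference between the hairpins was -0.79 (SE 0.18, adjusted p = 0.00663, at most 0.0384 with 1 library left out). Against GFPsh it was not called, at -0.38 (adjusted p = 0.188) in FOSL1sh3 and 0.42 (adjusted p = 0.19) in FOSL1sh10. LINC00963, at 13.1, 13.4 and 21.3 CPM in FOSL1sh3 libraries and 11.2, 8.94 and 9.77 CPM in FOSL1sh10 libraries, was higher by 0.67 (SE 0.21, adjusted p = 0.0477), which rested on FOSL1sh3 3 (0.41, adjusted p = 0.242 without it) and was lost without any 1 FOSL1sh10 library (0.0644 to 0.175), with library totals alone (0.118) and in a fit of the compared groups alone (0.068). LINC02582, LINC02474 and LINC00239 differed between the hairpins as well, at -0.60 (adjusted p = 0.0133), -0.89 (0.0235) and 0.78 (0.0432). LINC02582 lost this call without FOSL1sh10 2 (0.0673), LINC02474 without FOSL1sh3 2 or 3 or FOSL1sh10 1 or 3 (up to 0.111) or with the compared groups alone (0.0504), and LINC00239 without FOSL1sh3 1 or 3 or FOSL1sh10 1 or 2 (up to 0.156) or with library totals alone (0.104) or the compared groups alone (0.0658).

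The other members lower in FOSL1sh3 than in FOSL1sh10 were low in count. LINC01559 was at 0.817, 1.01 and 1.90 CPM in FOSL1sh3 libraries, 3.70, 2.94 and 3.66 CPM in FOSL1sh10 libraries, and 1.93, 2.92 and 2.53 CPM in GFPsh libraries, a difference between the hairpins of -1.47 (SE 0.39, adjusted p = 0.0212), lost without FOSL1sh3 1, FOSL1sh10 1 or FOSL1sh10 3 (0.0553 to 0.0881). LINC02086, 13351 bases from the homeobox gene HOXB7, averaged 2.39 ± 0.300 CPM in FOSL1sh3, 4.92 ± 0.771 CPM in FOSL1sh10 and 3.87 ± 0.790 CPM in GFPsh (SD, n = 3 each), a difference of -1.05 (adjusted p = 0.0295) that was lost without FOSL1sh3 1 or 3 or FOSL1sh10 2 or 3 (up to 0.134) or with the compared groups alone (0.0504). LINC00944 (-1.76, adjusted p = 0.0279), LINC01444 (-2.03, 0.0266), LINC01534 (-1.68, 0.0327), LINC02015 (-2.41, 0.041) and LINC02535 (-1.37, 0.0454) were lower as well, each on 7 to 26 summed FOSL1sh3 counts. The FOSL1sh3 and FOSL1sh10 libraries did not overlap in any of these 5. LINC00944 lost its call without FOSL1sh3 2 or 3 or FOSL1sh10 2 or 3 (adjusted p up to 0.105), and LINC01444 without FOSL1sh3 1 or 2 or any FOSL1sh10 library (up to 0.0936). LINC01534 lost it without FOSL1sh3 1 or 3 or FOSL1sh10 1 or 2 (up to 0.137), LINC02015 without FOSL1sh3 1 or 3 or any FOSL1sh10 library (up to 0.159), and LINC02535 without any of the 6 libraries (0.0514 to 0.241). With the compared groups alone LINC02015 (0.0515) and LINC02535 (0.0673) missed the threshold too, and LINC02535 also did in DESeq2 (0.0575).

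LINC01291 and LINC002481 (spelled so in the annotation, now LINC02481) completed the members higher in FOSL1sh3. LINC01291 was at 10.4, 6.03 and 5.70 CPM in FOSL1sh3 libraries, 1.56, 4.75 and 2.24 CPM in FOSL1sh10 libraries, and 3.03, 2.69 and 4.40 CPM in GFPsh libraries. The hairpins did not overlap, and the log2 fold change was 1.36 (SE 0.37, adjusted p = 0.0212), lost without FOSL1sh3 1 (0.104), FOSL1sh10 1 (0.0811) or FOSL1sh10 3 (0.0926). LINC002481 had 27, 28 and 26 counts in FOSL1sh3 libraries, 13, 9 and 12 counts in FOSL1sh10 libraries, and 9, 17 and 11 counts in GFPsh libraries, with a log2 fold change between the hairpins of 1.31 (SE 0.39, adjusted p = 0.0359), lost without FOSL1sh3 2 or 3 or FOSL1sh10 2 or 3 (up to 0.154) or with library totals alone (0.0538). It lies 2550 bases from S100P, a calcium-binding protein gene of carcinomas, and begins 1476 bases downstream of AC093323.2 on the same strand.

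Pairs of a member and its neighbouring protein-coding gene are given as counts. The nearest coding gene was itself tested for 114 members. With FOSL1sh3 against GFPsh, 9 of these members and 14 of the neighbours (12.3%, with 9.8% of all genes) were called and 1 pair, LINC01220 and FOS, was called on both sides, in opposite directions. With FOSL1sh10 against GFPsh, 6 members and 8 neighbours (7.02%, with 4.88% of all genes) were called and no pair on both sides. Between the hairpins 12 members and 15 neighbours (13.2%, with 11.5% of all genes) were called, and 2 pairs were called on both sides, each in 1 direction: LINC002481 with S100P, which was higher in FOSL1sh3 (0.62 on the log2 scale, SE 0.18, adjusted p = 0.0295), and LINC01559 with GRIN2B, a glutamate receptor subunit gene, which was lower in FOSL1sh3 (-2.25, SE 0.42, adjusted p = 0.0021). With so few members called, the number of pairs says little about neighbours. Of the 20 members that begin within 1 kb of a coding gene on the opposite strand, as ZNF567-DT (LINC01534) and TAF12-DT do, 2 were called in FOSL1sh3 against GFPsh, 0 in FOSL1sh10 against GFPsh and 1 between the hairpins, too few to read their pairs.

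Promoter sequences were looked up in RefSeq (GRCh38.p14), from 250 bases before to 50 bases after the listed start, and matched for 113 members; LINC00707 was not among them. The pattern TGANTCA, which covers the AP-1 motif and reads the same on both strands, occurred in 8 of the 113 (7.08%), against 7.71% of all 35116 promoters of the same length. The related motif TGACGTCA, also palindromic, occurred in none of the 113 and in 1.85% of all promoters. Of the 113, 19 (16.8%) were called in at least 1 of the 3 comparisons, and of the 8 with TGANTCA 3 were (37.5%), LINC00460, LINC01615 and LINC00963, a difference that was not tested. The matching share of all tested genes was not counted. LINC00460 and LINC00963 were called only between the hairpins (11.5% of all genes). LINC01615 was called only in FOSL1sh10 against GFPsh, where it was higher (4.88% of all genes called). The promoters of these 3 members are shown with the pattern in capitals because they were called in at least 1 comparison. LINC00460 (chr13:106376314-106376613, plus strand) holds the pattern at 2 positions, both as TGACTCA. LINC01615 (chr6:169162252-169162551, minus strand) and LINC00963 (chr9:129488410-129488709, plus strand) hold it at 1 each. In LINC00963 it reads TGAGTCA, while in LINC01615 it reads TGAATCA, which lacks the C or G at the centre.
LINC00460: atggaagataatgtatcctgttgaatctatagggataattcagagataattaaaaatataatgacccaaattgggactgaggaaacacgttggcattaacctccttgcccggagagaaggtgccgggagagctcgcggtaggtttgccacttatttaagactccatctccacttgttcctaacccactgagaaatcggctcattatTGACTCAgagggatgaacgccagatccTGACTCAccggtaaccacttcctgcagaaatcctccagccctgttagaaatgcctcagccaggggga
LINC01615: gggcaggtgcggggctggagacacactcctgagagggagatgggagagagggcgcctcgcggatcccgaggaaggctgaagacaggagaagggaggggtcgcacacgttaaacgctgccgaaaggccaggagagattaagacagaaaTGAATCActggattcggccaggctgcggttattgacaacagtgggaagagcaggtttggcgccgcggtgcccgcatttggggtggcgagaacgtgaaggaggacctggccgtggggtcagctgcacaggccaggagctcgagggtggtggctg
LINC00963: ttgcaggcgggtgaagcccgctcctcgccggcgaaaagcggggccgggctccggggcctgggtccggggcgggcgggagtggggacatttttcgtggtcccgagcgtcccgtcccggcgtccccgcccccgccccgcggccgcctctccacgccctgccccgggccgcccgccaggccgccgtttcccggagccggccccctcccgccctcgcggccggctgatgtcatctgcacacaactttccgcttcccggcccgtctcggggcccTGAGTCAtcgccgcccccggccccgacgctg
The RefSeq starts of these 3 lie 2087, 623 and 5209 bases from the GENCODE gene starts, in that order, so other promoters of the same genes may lie outside these windows. LINC01508 and LINC02482, called with both hairpins, have windows that hold neither motif.

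Among 25 LINC genes listed for earlier study in cancer cells, 19 were found by name and 15 were members. The listed LINC00152 and LINC00657 are older names of CYTOR and NORAD, which are counted below among RNAs with other names. Of the 15 members, none was higher with FOSL1sh3 and 3 were lower (LINC00707, LINC00520 and LINC00641), where 4.65% of all genes were higher and 5.16% lower. With FOSL1sh10 1 was higher (LINC01133) and 1 was lower (LINC00707), where 2.91% of all genes were higher and 1.97% lower. LINC00707 is in both counts although its low level was known when it was chosen. The median log2 fold change of the 15 was -0.06 in FOSL1sh3 and -0.12 in FOSL1sh10, with 0.01 and 0.00 over all tested genes. Against the same shares of all genes, of 23 tested long noncoding RNAs with other names 4 were higher and 2 lower with FOSL1sh3 and none was higher and 1 lower with FOSL1sh10. The 4 higher with FOSL1sh3 included CYTOR (log2 fold change 0.63, SE 0.16, adjusted p = 0.0203) and NORAD (0.72, SE 0.17, adjusted p = 0.0134). The count of none higher among the 15 members therefore depends on current names. UCA1, studied in bladder and other carcinomas, was lower with both (log2 fold change -0.86, SE 0.15, adjusted p = 0.00164 in FOSL1sh3 and -0.68, SE 0.15, adjusted p = 0.00941 in FOSL1sh10). Of 20 tested small RNA host genes none was called with FOSL1sh3 (9.8% of all genes), and 1 was higher and 1 lower with FOSL1sh10 (4.88% of all genes called); the higher one was MIR205HG, the host of miR-205 (log2 fold change 1.69, SE 0.20, adjusted p = 2.8e-05).

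The share of members called is given by depth. Among members with a mean under 20 counts, 7 of 91 (7.69%) were called with FOSL1sh3 and 3 (3.30%) with FOSL1sh10, against 2.15% and 1.71% of all genes of that depth, and the median SE of their log2 fold changes was 0.55 and 0.54. Among the 49 members with 20 to under 100 counts, 4 (8.16%) and 3 (6.12%) were called, against 8.37% and 4.12% of all genes of that depth, with a median SE of 0.31 in each comparison. Among the 19 members with at least 100 counts, 2 (10.5%) and 3 (15.8%) were called, against 13.8% and 6.63% of all genes of that depth, with a median SE of 0.18 in each comparison. For the 130 members called in none of the 3 comparisons, a change smaller than a few SEs was not detectable at this depth. At the count minimum the members LINC00589 and LINC01715 averaged 5.0 counts and LINC01119 averaged 5.11 counts, while LINC01213, LINC01842 and LINC02341, just outside, averaged 4.89 counts each.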

How the data were processed

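RNA was measured in 9 libraries of EGI-1 cells, grouped by their titles. The authors deposited raw counts per gene for each library. Per the labels, libraries followed a low-input protocol (MARS-seq), which as background tags 3' ends, from RNA with an RQI above 7. Per the submitters' processing notes, FastQC 0.11.5, STAR 2.5.3a, edgeR and limma were named, with hg38. Per the file headers, featureCounts 1.6.0 counted exons per gene of GENCODE release 28, with no option set for strand, multi-mapping reads or reads over several genes. Reads from overlapping genes therefore cannot be told apart or are lost. The labels and headers do not say whether molecular identifiers were collapsed, and counting intervals and floors cover counting error only.

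Names and gene types came from GENCODE release 29, in which 120 of the file identifiers were not found. Genes with a mean of at least 5 counts (13884) were fitted together in edgeR 4.0.16 (R 4.3.3) with TMM scaling, a quasi-likelihood F test over 3 groups and Benjamini-Hochberg adjustment over all of them, at 0.05. The SE of a log2 fold change is its size over the root of F. The common biological variation was 16.6%. CPM were normalized with the same factors except in the marker sums, and correlations used log2 CPM with a prior count of 1. The fit was tested on simulated data. Genes were named by rule: LINC00707, the 10 highest per kb, members called with both hairpins, the 8 most changed in each direction and comparison, those next to the count minimum, the 5 most like LINC00707 and the called members of each list, up to 4; LINC00460 was added. Members and lists were chosen with earlier results of these data known. Alternatives were RLE scaling, library totals, DESeq2 1.42.0, other count filters, a replicate block, the compared groups alone, members apart from other genes, and leaving out each library.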

Additional observations from a re-analysis of the deposited data

Results flagged for a closer look

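The FOSL1 hairpins are meant to act on 1 gene. In 16 members (10.1%, against 11.5% of all tested genes) the response to FOSL1sh3 differed from that to FOSL1sh10 by a direct test in edgeR (adjusted p under 0.05). The values below are log2 fold changes of FOSL1sh3 over FOSL1sh10, and each equals the difference of the fold changes against GFPsh.

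Lower in FOSL1sh3 were LINC02015 (-2.41), LINC02551 (-2.06), LINC01444 (-2.03), LINC00944 (-1.76), LINC01534 (-1.68), LINC01559 (-1.47), LINC02535 (-1.37), LINC02086 (-1.05), LINC02474 (-0.89), LINC00460 (-0.79) and LINC02582 (-0.60). In LINC02551 the hairpins were called on opposite sides of GFPsh. LINC02582 and LINC02474 were called with FOSL1sh3 and had fold changes of -0.02 and -0.00 with FOSL1sh10.

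Higher in FOSL1sh3 were LINC01291 (1.36), LINC002481 (1.31), LINC02323 (1.22), LINC00239 (0.78) and LINC00963 (0.67). LINC00239 was called with FOSL1sh10, at -0.99 against GFPsh, and had a fold change of -0.21 with FOSL1sh3. FOSL1 itself differed by -0.05 between the hairpins (SE 0.19, adjusted p = 0.896).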

How the results depend on the processing

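Of 38 called fold changes of named members, 8 kept their call under every alternative run, no alternative of the 492 reversed a direction, and 136 ended a call. The 8 include LINC00707 with each hairpin, whose fall was known, and LINC00460, added after its values were seen. All 38 were calls in these same data, so kept calls and directions are no independent support. Leaving out 1 library ended 30 of the 38 calls, while alternatives that kept all libraries ended 11. With 1 library left out the number of members called ran from 4 to 13 for FOSL1sh3 against GFPsh, from 3 to 6 for FOSL1sh10 against GFPsh, from 6 to 14 between the hairpins, and from 1 to 4 for both hairpins in 1 direction. The lowest counts were those without GFPsh 3 (4), without GFPsh 1, FOSL1sh10 1 or FOSL1sh10 2 (3 each), without FOSL1sh10 2 or FOSL1sh10 3 (6 each) and without FOSL1sh10 2 (1). Over all 13884 genes the calls ran from 572 to 1772 for FOSL1sh3, from 344 to 420 for FOSL1sh10 and from 717 to 1900 between the hairpins. With every library they were 1361, 677 and 1595. The summed share of raw library totals, without TMM factors, ran from 90.5 to 93.8 percent of GFPsh for FOSL1sh3 and from 105 to 111 for FOSL1sh10.

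Fitting the compared groups alone gave 14 members for FOSL1sh10, 10 between the hairpins and 5 for both hairpins. Over all genes these fits called 1088 for FOSL1sh10 and 1285 between the hairpins, where the main fit called 677 and 1595. Without a count filter both hairpins shared 6 members. Keeping members with at least 20 counts left 6 for FOSL1sh3, 10 between the hairpins and 1 for both, and at least 10 counts left 1 for both. Members apart from other genes (64) gave 8, 4 and 8 calls for FOSL1sh3, FOSL1sh10 and between the hairpins; fewer members entered. Without LINC02582 the FOSL1sh3 share was 96.1% of GFPsh. The cause of the other shifts was not tested. Replicate numbers showed no clear pairing of the libraries, though a weak one could be missed with 3 per group. Deviations from group means correlated at -0.113 to 0.130 between same-numbered libraries and at -0.123 to 0.127 between others. A replicate block gave 12, 10, 15 and 3 calls for FOSL1sh3, FOSL1sh10, between the hairpins and both hairpins. Under the block LINC00641 (adjusted p = 0.0546) with FOSL1sh3, and LINC00963 (0.0534) and LINC02535 (0.0617) between the hairpins, missed the threshold. Low counts limit most members.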
